A study of Mus musculus with 3 samples.

Results

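Adrenomedullin and its relatives signal through receptors that need a partner protein. The receptor gene Calcrl encodes a G protein-coupled receptor that reaches the cell surface and binds ligand only together with a receptor activity-modifying protein (RAMP). With the product of Ramp1 it forms a receptor for calcitonin gene-related peptide, and with that of Ramp2 or Ramp3 a receptor for adrenomedullin, the peptide encoded by Adm. Calcr encodes the calcitonin receptor, which binds calcitonin alone and becomes an amylin receptor when a RAMP joins it. The system is best known from blood and lymph vessels, whose formation in the mouse embryo requires Adm, Calcrl and Ramp2, and adrenomedullin also widens kidney vessels and promotes sodium excretion.

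The 6 genes described are Ramp1, Ramp2, Ramp3, Calcrl, Calcr and Adm, out of 18193 genes that the platform annotation names on the array. They were grouped because Ramp2 gave a strong signal on these arrays while most vessel genes were near background, so the signal of Ramp2 and the distance of the members from background are given as a description and not as a test. CD-1 embryos at E15.5 (Theiler stage 23, sex unknown) gave the kidneys, which were dissociated with trypsin and sorted by fluorescence. The embryos carried the transgene Tg(Six2-EGFP/cre)1Amc, in which a Six2 promoter drives EGFP and cre, so the sort takes cells that make or have kept EGFP. All 3 arrays belong to this single group, 1 array for each pool of about 5 to 10 kidneys. There was no sorted population without EGFP and no whole kidney, so each gene could be set only against the background of the same array.

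The sorted cells carried the genes of cap mesenchyme, the nephron progenitors that surround the ureteric tips. All 11 measured cap mesenchyme markers were called above background, with Crym at a signal of 23823 ± 2366 and Itga8 at 22805 ± 4450 (SD, n = 3 each). Stromal markers were present too, with 9 of 10 called, while 3 of 10 ureteric, 0 of 10 macrophage and 0 of 8 red cell markers were. For comparison, 54.4% of all named genes were called. In limma the macrophage and red cell lists also held 0 genes at an unadjusted p under 0.05, and without pool 1 the red cell gene Hba-a2 was called. With the median probe set in place of the brightest 5 of 10 stromal markers were called, against 39.0% of named genes. Where a gene has an even number of probe sets, the dimmer of the middle pair stands for the median here and below. A gene with 2 probe sets is then represented by its dimmer one. At the 99th percentile of background 0 of 10 ureteric markers were called, against 46.1% of named genes. Signals are linear intensities scaled so that the arrays have the same trimmed mean. The background level is the 95th percentile of 150 probe sets for sensory receptor, hair and defensin genes on the same array, at 197, 186 and 201 in pools 1, 2 and 3. A call means an adjusted p under 0.05 in limma's one-sided test of log2(signal + 16) against that level over all 45037 probe sets. The labels do not say whether the pools came from separate litters, so the p-values reach no further than these arrays. They rest on a spread between arrays that limma moderates across probe sets, and they treat the background level as exactly known.

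Of the 6 genes, 1 was called above background, and that gene was Ramp2. By comparison 54.4% of the named genes and 41.5% of all probe sets were called, and since the genes were chosen on this contrast nothing is read from the difference. The 6 genes are represented by 11 probe sets that carry a single symbol, of which 1 was called, and 2 further probe sets are annotated to both Ramp2 and its neighbour Vps25. The median distance from background was -0.29 on the log2 scale for the 6 genes and 1.20 for all named genes, each gene represented by its probe set with the highest mean. No signal was exactly 0.

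Ramp2 was the member with a clear signal in every pool. Its probe set 1418187_at read 5590, 7146 and 7865 in pools 1, 2 and 3, with a mean of 6867 ± 1163 (SD, n = 3). These values are 28.4, 38.5 and 39.1 times the background level of the same array, and none of the 150 background probe sets read higher in any pool. On the log2 scale the distance from background was 4.72, 5.15 and 5.18, so pool 1 was the lowest and pools 2 and 3 lay close together.

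The probe sets annotated to Ramp2 and Vps25 together differed in their calls. Vps25, which encodes a subunit of the sorting complex that delivers membrane proteins to the lysosome, is the next gene after Ramp2 on chromosome 11 in the GRCm38 annotation. Probe set 1428621_a_at read 1325, 1246 and 1320 in pools 1, 2 and 3 and was called, with all values over 6 times the background level. Probe set 1421051_s_at read 162, 241 and 220 and was not called, with pool 1 under the background level and pools 2 and 3 over it. The single probe set of Vps25 alone, 1421050_at, read 236, 172 and 227 and was not called either. Which of the neighbours the shared probe sets report was not tested, so the call of Ramp2 rests on 1418187_at. Levels of different probe sets cannot be ranked, because probes differ in affinity.

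**Figure D1:**
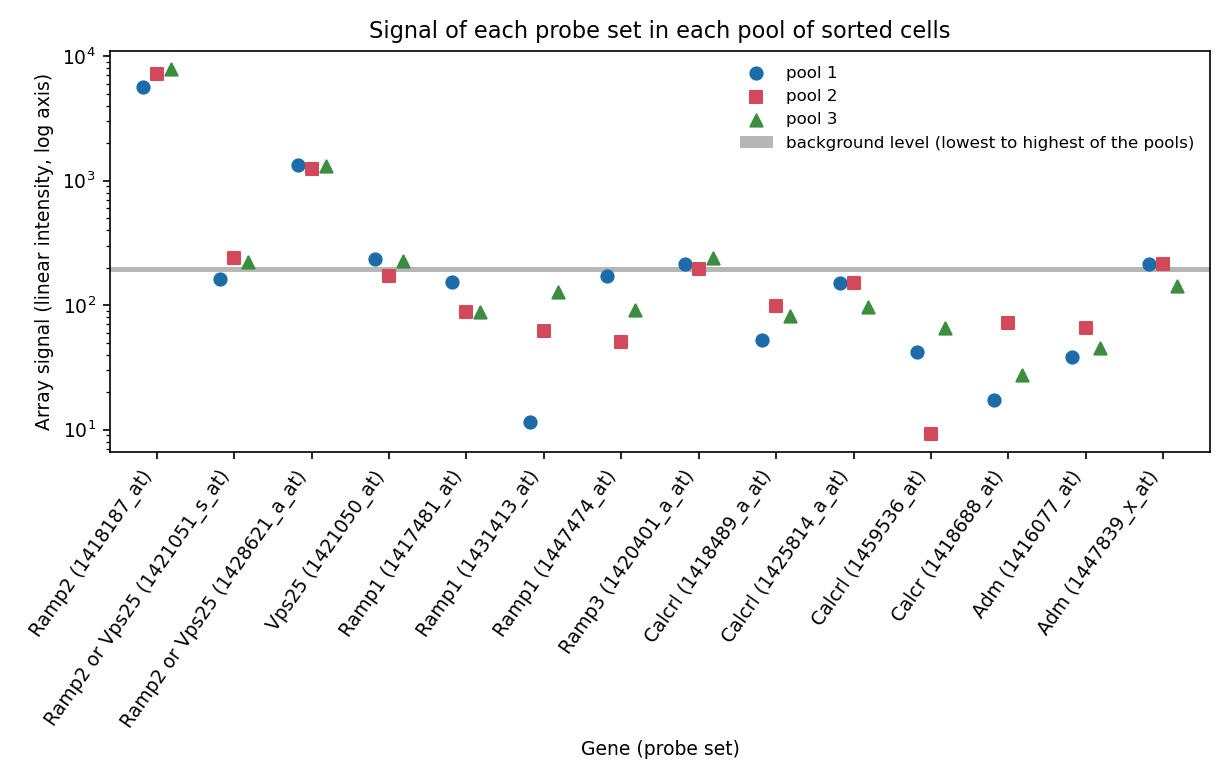
Array signal (linear intensity on a log axis) of each probe set of the 6 genes, of the probe sets shared by Ramp2 and Vps25 and of Vps25 alone, with 1 point for each pool and a grey band from the lowest to the highest background level. Probe set 1418187_at of Ramp2 lies between 5590 and 7865 and the shared probe set 1428621_a_at between 1246 and 1325, while the others lie near or under the band.

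The other RAMP genes were at or under the background level. Ramp3, whose product also makes Calcrl an adrenomedullin receptor, read 215, 194 and 237 in pools 1, 2 and 3, which is 1.09, 1.04 and 1.18 times the background level. It lay over that level in 3 of 3 pools and was not called. Of the 150 background probe sets, 7, 6 and 6 read higher than Ramp3 in these pools, so its signal cannot be told from that of the brightest background probe sets.

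Ramp1, the partner of Calcrl in the receptor for calcitonin gene-related peptide, stayed under the background level on all 3 of its probe sets in every pool. Probe set 1417481_at read 152, 88.7 and 88.0 in pools 1, 2 and 3. Probe set 1447474_at read 172, 50.8 and 92.1, and probe set 1431413_at read 11.5, 62.4 and 128. The probe sets did not share an order of pools, since pool 1 was the highest on 1417481_at and 1447474_at and the lowest on 1431413_at.

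The receptor genes gave no signal above background either. Calcrl, which encodes the shared receptor of adrenomedullin and calcitonin gene-related peptide, read 151, 151 and 97.0 in pools 1, 2 and 3 on probe set 1425814_a_at. It read 52.9, 97.8 and 82.2 on 1418489_a_at, and 41.7, 9.20 and 65.9 on 1459536_at. Every one of these 9 values lay under the background level of its array, and in pool 1 between 13 and 64 of the 150 background probe sets read higher. The calcitonin receptor gene Calcr, on 1 probe set, read 17.2, 71.7 and 27.3, at 0.0875, 0.386 and 0.136 times the background level. All 3 pools were thus low for Calcr, and pool 2 was the highest of them.

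The ligand gene Adm lay around the background level on one probe set and under it on the other. Probe set 1447839_x_at read 213, 212 and 141 in pools 1, 2 and 3, with pools 1 and 2 over the background level and pool 3 under it. Its suffix marks probes that can match other transcripts. Probe set 1416077_at read 38.0, 65.1 and 45.4, under the background level in every pool. Neither was called, and a probe set at background sets no lower bound on the transcript in the cells.

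Ramp2 varied between pools about as much as the typical called probe set. For Ramp2 the highest and lowest pools differed by 0.49 on the log2 scale, against a median of 0.49 over the 18699 called probe sets. For the 10 member probe sets that were not called this range ran from 0.27 for Ramp3 to 2.40 for Ramp1 on 1431413_at, against a median of 1.02 over the 26338 probe sets not called. With 1 array for each pool, differences between pools have no replicate check and no test.

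Other peptides that act on these receptors were not called. Adm2 encodes intermedin, which acts on Calcrl with any RAMP, and read 114, 164 and 120 in pools 1, 2 and 3. Calcb, which encodes the beta form of calcitonin gene-related peptide, had a mean of 77.0 ± 24.1, and Iapp, the amylin gene, of 87.0 ± 6.61 (SD, n = 3 each). With these, 0 of 3 measured genes were called in limma with Benjamini-Hochberg adjustment, against 54.4% of named genes. Of the 3, 0 had an unadjusted p under 0.05, and each had an adjusted p of 1. With only 3 genes, nothing is read from the difference in share. Calca was not analysed here.

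Among other receptors that have been reported to pair with RAMPs, Pth1r was the one called. Of 12 measured genes 1 was called (8.3%, against 54.4% of named genes), and the median distance from background was -0.65 on the log2 scale. Pth1r, which encodes the receptor for parathyroid hormone and its related peptide, read 1064, 1626 and 1956 in pools 1, 2 and 3 (mean 1548 ± 451, n = 3; adjusted p = 3.3e-06 in limma). All pools lay well over background, pool 1 lowest. Crhr1, a receptor for corticotropin-releasing hormone, read 341, 349 and 203 (adjusted p = 0.11 in limma), and the oestrogen-responsive receptor gene Gper1 read 343, 228 and 243 (adjusted p = 0.17 in limma). Both lay over background in all 3 pools without passing the test. Casr, the calcium-sensing receptor gene, had 60.9, 252 and 216 and the pituitary peptide receptor gene Adcyap1r1 had 128, 108 and 254, with pools on both sides of background and an adjusted p of 1 each in limma. The lowest values against background were those of Pth2r (29.1 ± 18.7; SD, n = 3), Vipr1 (56.8 ± 85.8; SD, n = 3) and Vipr2, with a mean of 81.5.

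Genes that process, capture or break down these peptides were mostly above background. Of 7 measured genes 6 were called (85.7%, against 54.4% of named genes), with a median distance of 3.52 on the log2 scale against 1.20 for all named genes. With the median probe set 4 were called, against 39.0% of named genes. Ackr3 encodes an atypical chemokine receptor that also takes up adrenomedullin, and it read 17631, 14750.4 and 14530.3 in pools 1, 2 and 3 (adjusted p = 1.6e-08 in limma). Its only probe set has the suffix _s_at, which marks probes that can match several transcripts. When probe sets with the suffix _s_at or _x_at were dropped, Ackr3 was not measured and 5 genes of the list were called, against 52.9% of named genes. Pam encodes the enzyme that amidates adrenomedullin at its end, a step needed for activity, and read 2008, 2699 and 2517 (adjusted p = 1.7e-07 in limma). Pools differed little beside the distance of both genes from background.

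Among the peptidases, Mme, which encodes neprilysin, read 480.0, 977 and 855 in pools 1, 2 and 3 (adjusted p = 0.00017 in limma). Ide, the gene of the insulin-degrading enzyme that also cleaves amylin, was at 14572 ± 2191, and Ece1, of the endothelin-converting enzyme, at 2320.1 ± 87.0 (n = 3 each). Crcp encodes a component protein that couples Calcrl to signalling and is also a subunit of RNA polymerase III, and it was at 3606 ± 284 (n = 3). Gpr182, once taken for an adrenomedullin receptor and known from endothelium, was the member not called, at 148 ± 15.3 (n = 3). Mme was called on 1 of 2 probe sets and Ece1 on 1 of 3, so those calls rest on the probe set with the highest signal.

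The transducers downstream of RAMP receptors, which raise cyclic AMP, were called in most cases on their brightest probe sets. Of 28 measured genes 23 were called (82.1%, against 54.4% of named genes), with a median distance of 2.43 on the log2 scale. Prkar1a and Prkar2b, which encode regulatory subunits of protein kinase A, were at 13048 ± 1747 and 8512 ± 423, and the catalytic subunit gene Prkaca was at 10810.3 ± 1894 (n = 3 each). The target transcription factor gene Creb1 was at 7480.0 ± 555 and Gnaq, of a G protein that acts through calcium, at 7882 ± 560.2 (n = 3 each). Gnas, the gene of the G protein that couples Calcrl to adenylyl cyclase, was looked up after its values were seen, and read 31424, 49375 and 36352 in pools 1, 2 and 3 on its brightest probe set, with 2 of its 5 probe sets called. The members with the lowest statistics were the cyclase gene Adcy4 (94.4 ± 60.8) and the phosphodiesterase genes Pde3a (58.3 ± 59.0) and Pde4b (178 ± 55.9, n = 3 each), none of which was called. These transducers serve many receptors, so their calls are not particular to adrenomedullin. When the median probe set represented a gene in place of the brightest, 12 of the 28 genes were called, a share near the 39.0% of named genes called in that way.

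**Figure D2:**
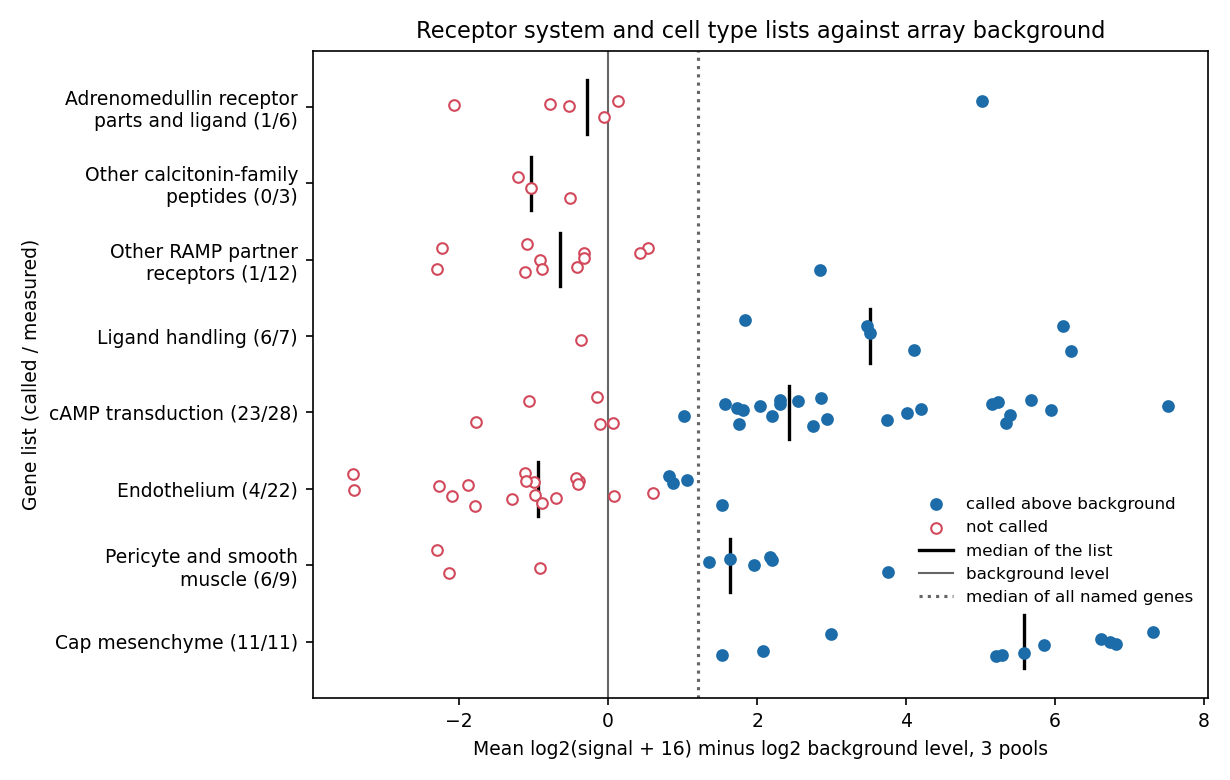
Mean distance of each gene from the background level over the 3 pools (log2 scale), by gene list, with called genes filled, other genes open, a black bar at each list's median and a dotted line at the median of all named genes (1.20). Ramp2 is the filled point at 5.02 in the top row and the other 5 genes of that row lie between -2.07 and 0.13, while 6 of 7 ligand handling genes and 23 of 28 transducers are filled.

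The vessel genes among which Ramp2 was noticed were mostly not called. Of 22 endothelial markers 4 were called (18.2%, against 54.4% of named genes), at a median distance from background of -0.94 on the log2 scale. Since low vessel genes were part of the reason for describing Ramp2, these values are a description and nothing is read from the difference. With the median probe set in place of the brightest, 2 were called, against 39.0% of named genes. Among those called, Egfl7, which encodes a secreted vessel protein, was at 591 ± 45.9 and the TGF-beta coreceptor gene Eng at 424 ± 66.5 (n = 3 each). The lymphatic receptor gene Flt4 read 425, 259 and 400 in pools 1, 2 and 3, and Plvap, of a protein in vessel fenestrae, read 294, 334 and 513. Both were called, though Flt4 was not called without pool 1 or without pool 3, nor Plvap without pool 2 or without pool 3.

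The single values of the defining endothelial genes show what that choice was based on. Pecam1 read 61.9, 24.4 and 56.7 in pools 1, 2 and 3, and the vessel cadherin gene Cdh5 read 96.3, 104 and 51.5. The receptor genes Tek and Tie1 and the clotting factor gene Vwf had means of 32.4, 3.82 and 3.67. Kdr, the main receptor of vascular endothelial growth factor, read 197, 207 and 214, near the background level, and was not called. Cldn5, Emcn, Erg, Sox17, Sox18, Robo4, Tal1, Nos3, Flt1, Lyve1 and Prox1 were not called, with means from 48.1 for Erg to 155 for Prox1. Esam, at 313 ± 96.4 (n = 3), was not called either, though it was called at the 90th percentile of background and with dim probe sets left out. The summed signal of the list was 3417, 3446 and 3772 in pools 1, 2 and 3. How far RNA of vessel cells adds to the signal of Ramp2 was not tested, and in pooled cells fewer cells of a type cannot be told apart from less RNA in each cell.

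Markers of pericytes and vascular smooth muscle, which also respond to adrenomedullin, were called in 6 of 9 cases (66.7%, against 54.4% of named genes), a share near that of all genes. With the median probe set in place of the brightest, which is the dimmer one for genes with 2 probe sets, 2 were called, against 39.0% of named genes. When probe sets with the suffix _s_at or _x_at were dropped 4 were called, against 52.9% of named genes. Notch3 was at 2874 ± 533, Des at 959 ± 175 and Pdgfrb at 804 ± 13.7, while Rgs5 (108 ± 60.7), Myh11 (39.9 ± 40.7) and Tagln (27.4 ± 7.29, n = 3 each) were not called. Acta2, the smooth muscle actin gene, was at 943 ± 190.0 and Mcam at 646 ± 121 (n = 3 each). The summed signal of the list was 7141, 6159 and 7506 in pools 1, 2 and 3, lowest in pool 2, but single genes differed from the sum. Of the 6 called, 3 were lowest in pool 1 and highest in pool 3 as Ramp2 was, and 1 had the opposite order. The part of these cells in the signal of Ramp2 was not tested. Several of these genes are active in other mesenchyme as well.

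Adm is known to be induced in low oxygen, and it lay at background while most other genes of that response were called. Of 14 such genes 12 were called (85.7%, against 54.4% of named genes), with a median distance of 4.02 on the log2 scale. The glycolytic genes Ldha, Pgk1 and Hk2 were at 31332 ± 6144, 51037 ± 7838 and 8975 ± 596, and Bnip3 and the oxygen sensor gene Egln1 at 9266 ± 401 and 8386 ± 763 (n = 3 each). Egln3 (113 ± 48.4) and Car9 (76.6 ± 62.8, n = 3 each) were not called, as Adm was not. With the median probe set in place of the brightest 10 of the 14 were called, against 39.0% of named genes. Whether a response to low oxygen was active in these cells was not tested.

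The highest and lowest pools differed 1.41-fold for Ramp2, and the gene lists gave mixed patterns beside it. As deviations from its own mean on the log2 scale, Ramp2 stood at -0.28, 0.07 and 0.21 in pools 1, 2 and 3. Genes induced by tissue dissociation, had a median deviation of -0.23, -0.03 and 0.30 over the 12 called of 14. Of these 12, 6 were lowest in pool 1 and highest in pool 3 as Ramp2 was, among them Fos at 27809, 38300 and 40057. In the opposite order were 2, among them the heat shock gene Hspa1b, chosen after its values were seen, at 11489, 7087 and 3644. For comparison, 24.2% of the other called genes had the order of Ramp2. So did 7 of 23 called transducers, with 5 in the opposite order, and 3 of 6 called pericyte and smooth muscle genes, with 1 in the opposite order. Of 12 called low-oxygen genes 3 had the order of Ramp2 and 4 the opposite order. These counts were 2 and 1 for 6 called ligand handling genes, and 1 and 0 for 4 called endothelial genes. The share of all called genes in the opposite order is not given here, so nothing is read from the counts in that order. Called endothelial genes had medians of -0.10, -0.13 and 0.14, and all called genes of -0.04, -0.02 and 0.06. The medians of cap mesenchyme markers were 0.11, 0.03 and -0.10, and those of stromal markers 0.08, 0.04 and -0.14, but their members were split. Of 11 called cap mesenchyme markers 4 were highest in pool 1 and lowest in pool 3, and 1, Gdnf, chosen after its values were seen, had the order of Ramp2 (7119, 8617 and 8967). Of 9 called stromal markers 2 were highest in pool 1 and lowest in pool 3, and 1, Foxd1, had the order of Ramp2 (7370, 7389 and 7938). The part of dissociation or of cell makeup in the values of Ramp2 was not tested.

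**Figure D3:**
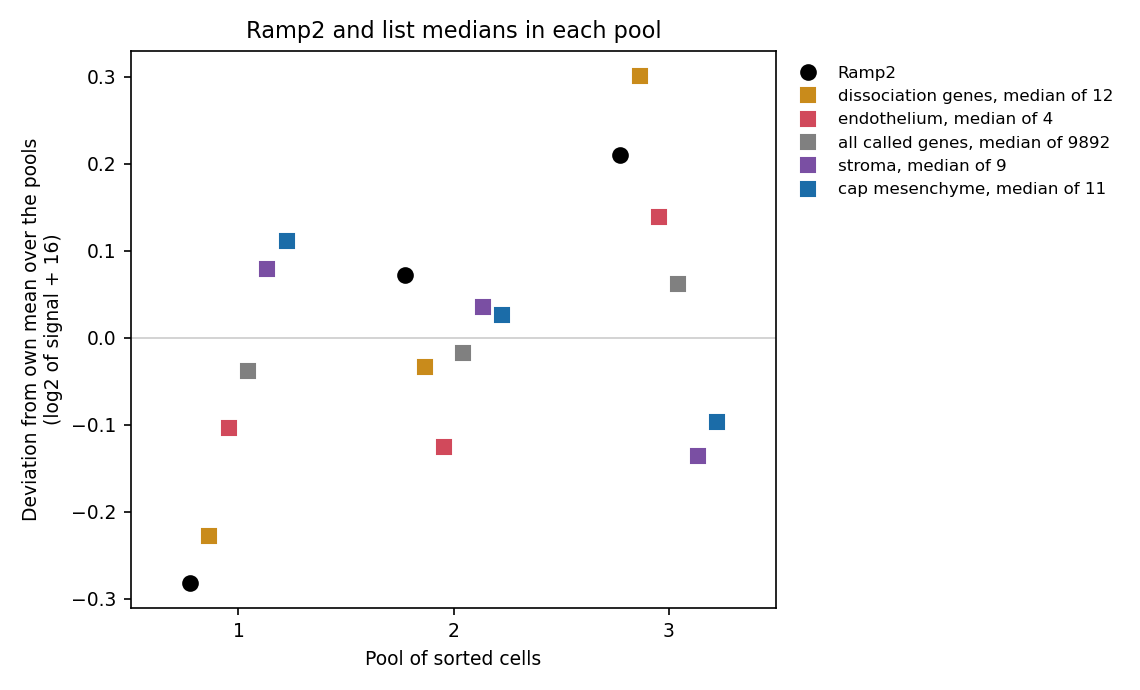
Deviation of Ramp2 from its own mean in each pool (log2 of signal + 16, black), beside the median deviation of called genes of 4 lists and of all 9892 called genes. Ramp2 and the median of the dissociation genes are lowest in pool 1 and highest in pool 3, whereas the medians of cap mesenchyme and stromal markers are highest in pool 1 and lowest in pool 3. Single genes of each list depart from its median.

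Many genes shared the pool pattern of Ramp2. By the Euclidean distance between the 3 deviations, the closest of 9890 other called genes were Pan3 (0.0040), Airn (0.0071), Tarsl2 (0.0073), Zdhhc6 (0.0082) and Igdcc3 (0.0098). Pan3, which encodes a subunit of an enzyme that shortens poly(A) tails, read 5548, 7114 and 7835 in pools 1, 2 and 3, and Airn, a long noncoding RNA of the imprinted Igf2r locus, read 629, 810 and 898. Within a distance of 0.1 lay 391 genes (3.95%), and 24.2% of the 9890 genes had the same order of pools as Ramp2. With 3 arrays such likeness is a description only.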

How the data were processed

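Signals were measured on a mouse Affymetrix array in 3 pools of sorted cells. The deposited values are linear intensity signals, 1 for each probe set, which the authors made with GCOS, per the submitters' processing notes, with version and settings not given in the sources used here. RNA was amplified in 2 rounds, per the labels' protocols, which can weaken signal from probes far from the 3' end. A mean trimmed by 2% at each end came to 1500 for all arrays. This shows scaling to one target, which removes differences in that trimmed mean but not in the rest of the distribution. The median signal over all probe sets was 222, 197 and 184 in pools 1, 2 and 3.

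By the annotation of the platform, 34945 probe sets carried 1 symbol, 932 several and 9160 none, and 64 controls were left out. From log2(signal + 16), which understates differences of weak signals, each array had the 95th percentile of its 150 background probe sets subtracted. Means over the arrays were tested against 0, one-sided, by limma 3.58.1 under R 4.3.3 (eBayes with intensity trend, Benjamini-Hochberg adjustment over 45037 probe sets). A gene counted as called when at least 1 of its single-symbol probe sets was, and its values are those of its brightest probe set by mean log2 signal. In the alternative with the median probe set, an even number of probe sets gave the dimmer of the middle pair. Since the background level came from the background probe sets themselves, of which 2 were called, those calls are no independent check.

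The members and lists were chosen with earlier results of these data known. All members and endothelial genes could be named, all genes of lists with up to 8 measured genes, and from longer lists those with the 5 largest and 3 smallest moderated statistics. The number of arrays limits the precision. Alternatives covered the background percentile, the pseudocount, quantile normalization, a filter on dim probe sets, the intensity trend, probe sets that can match several transcripts, the probe set that represents a gene, and each pool left out. Python 3.11.15 served for tables and plots.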

Additional observations from a re-analysis of the deposited data

How the results depend on the processing

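Ramp2 was the only one of the 6 genes called under all 12 alternatives and in a further one, chosen after seeing the data, that counted probe sets annotated to several genes, and none of the other 5 was called under any of them, though Calcr was left untested by the filter on probe sets with a mean signal under 50. The distance of Ramp2 from background ran from 3.89 on the log2 scale, at the 99th percentile of background, to 5.33 at the 90th. Its range between pools was 0.14 to 0.49 when each pool was left out in turn, the lowest without pool 1. Between 7090 and 10303 named genes, and between 60 and 91 genes of the other lists, were called under the alternatives, against 9892 and 87 as reported. At the 99th percentile 0 of 22 endothelial genes were called, and 2 were called without pool 3. At the 90th percentile 5 endothelial genes were called, against 56.6% of named genes. With dim probe sets left out 5 were called too, against 66.2% of named genes, and Esam was gained in both settings. Among RAMP partner receptors Crhr1 was called at the 90th percentile and without pool 3, and Gper1 at the 90th, where the macrophage gene Cd68 was called too. The cause of these shifts was not tested. With the median probe set in place of the brightest, Mme and Ece1 were not called. The choice of the probe set that represents a gene does not bear on the count of probe sets, so it gave no value there. No paired analysis was possible because all arrays belong to 1 group. Signals near 200 cannot be told from background on these arrays.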
